A study of Homo sapiens with 3 samples.

Results

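The AP-1 family comprises the 4 FOS genes (FOS, FOSB, FOSL1, FOSL2) and the 3 JUN genes (JUN, JUNB, JUND), and its transcripts were examined in MDA-MB-231 cells exposed to estradiol or tamoxifen. Every probe set that the platform annotation assigns to a single gene symbol was taken when that symbol was one of the 7. This gave 17 probe sets of 41097 with a single symbol, and 7 genes of 19775. MDA-MB-231 is a human breast cancer line of basal, mesenchymal type that is commonly classed as lacking the estrogen receptor. All cells first spent 4 h in medium with 10% charcoal-stripped serum, which is depleted of steroids. They were then kept for 3 h with vehicle (0.1% ethanol), with estradiol at 1 µM or with tamoxifen at 1 µM, and the question put by the series title is what tamoxifen does to early gene expression. The labels give 1 sample for each treatment, so no difference below has a replicate, an error or a test.

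AP-1 is a dimer of basic leucine zipper proteins. FOS proteins do not pair with each other and bind DNA as partners of JUN proteins, while JUN proteins can also pair among themselves or with ATF and MAF factors. FOS, FOSB, JUN and JUNB are classical immediate early genes, whose transcription is raised within minutes by growth factor, stress or cAMP signals and usually falls back soon after. FOSL1 and FOSL2 respond later and last longer, and JUND is expressed more evenly. In breast cancer lines of basal type FOSL1 is a known abundant AP-1 subunit.

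The sequence just upstream of the start site is shown for 3 FOS genes and for JUN, chosen after their values were seen. FOS and FOSL2 hold the highest centred values of single probe sets on the ligand arrays, and JUN holds the lowest. FOSB shares a motif with FOS and FOSL2. JUND also holds that motif but is not shown, and a link between motifs and values was not tested. Each run covers the last 100 bases before the RefSeq start of the gene on GRCh38.p14, read along the strand of the gene, with matches to the motifs below in capitals. The stretches are chr14:75278728-75278827 for FOS and chr19:45467896-45467995 for FOSB, both on the plus strand. They are chr2:28392758-28392857 on the plus strand for FOSL2 and chr1:58784048-58784147 on the minus strand for JUN.
FOS: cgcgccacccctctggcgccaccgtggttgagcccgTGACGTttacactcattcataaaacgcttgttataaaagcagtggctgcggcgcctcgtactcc
FOSB: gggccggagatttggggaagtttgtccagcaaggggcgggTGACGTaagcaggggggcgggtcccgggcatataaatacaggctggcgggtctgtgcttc
FOSL2: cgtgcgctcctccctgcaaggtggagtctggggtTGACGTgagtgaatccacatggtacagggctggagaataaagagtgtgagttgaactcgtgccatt
JUN: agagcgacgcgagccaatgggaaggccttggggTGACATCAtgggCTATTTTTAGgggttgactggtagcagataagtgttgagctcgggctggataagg

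Both strands of the 250 bases before the start were searched in the 6 family genes with an entry in the RefSeq promoter table; FOSL1 was not among them. The core of the cAMP response element, TGACGT, starts at base -64 in FOS, -60 in FOSB and -66 in FOSL2, counted from the start site. It was held by 7.1% of 35116 promoters of this length. JUND holds it inside a full palindromic element, TGACGTCA (1.65% of promoters), that starts at base -200 and overlaps 2 of the core matches. JUND holds the core again at bases -87 to -82 on the opposite strand. JUN holds none of these, but at base -67 it has TGACATCA, a variant AP-1 site present in 2.37% of promoters, and a MEF2 site at base -55 (0.515% of promoters). JUNB matched none of the motifs in this window. The AP-1 site TGACTCA (4.2% of promoters) and the serum response element (1.16%) had no match in these 6 windows. Bases farther upstream than 250 were not searched, so an element lying there would have been missed. These are matches of letters, and binding was not measured.

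The deposited numbers were taken as log2 values, because RMA gives that base, and each probe set is centred on an unstated baseline. All folds rest on this assumed base. They give no level of a gene and allow no comparison of levels between genes. What they give is the difference between columns of 1 probe set, and higher was taken to mean more RNA. The vehicle values had a narrower spread over all named genes than the ligand values (SD 0.20 against 0.49 and 0.49) and lie on binary steps 1 place finer. A mean of 2 values, 1 of them near the baseline, would have both features. Doubling the column would then restore the other value, so differences from vehicle are given both ways. No source used here says whether the column is such a mean, and this was not tested. In the doubled setting the unstated baseline need not cancel. Brightness was read from the binary steps of the numbers. Probe sets brighter than 4 on the log2 scale, called above the floor here, were 13 of the 17, and 3 of these lay in the band of 8 and above (1 each of FOSL1, JUN and JUND). FOSB had its only probe set below the floor. Of markers fixed for the cell line, 7 of 8 (VIM, CD44, AXL, CAV1, EGFR, MSN and ZEB1) lay in the band of 8 and above. Of the 6 luminal markers 2 lay above the floor (ESR1 with 1 probe set, and GATA3), as did 2 of 5 leukocyte markers and 3 of 7 fibroblast and endothelial markers. GATA3 also lay in the band of 8 and above, so that band was not particular to the markers fixed for the cell line. ESR1 was lower with tamoxifen than with vehicle (-0.70) and estradiol (-0.75), PTPRC was higher with tamoxifen than with estradiol (0.62), and PECAM1 differed from vehicle by 0.40 with estradiol and 0.54 with tamoxifen. The part of these cell types in the results was not tested.

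FOS itself was the family gene with the largest difference from vehicle, and it was higher with both ligands. FOS encodes the founding member of the family and is a standard readout of acute signalling. Its probe set, 209189_at, read 0.08 with vehicle, 1.08 with estradiol and 0.90 with tamoxifen. Both ligand values lay far above the vehicle value and close to each other. The difference from vehicle was 1.0 with estradiol, or 2.00-fold, and 0.82 with tamoxifen, or 1.76-fold. They were 0.92 and 0.74 with the vehicle doubled, which still passed the size rule of 1.5-fold used here. Both comparisons use the same vehicle column. In bulk RNA a larger difference in some of the cells cannot be told apart from a smaller one in all of them. Among 12075 named genes above the floor, FOS ranked 130th from the top with estradiol and 303rd with tamoxifen. Tamoxifen minus estradiol was -0.19 for FOS.

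The poly-A spikes, bacterial RNAs added to the sample before labelling, moved in the same direction and by a similar amount. Over 24 spike probe sets the median difference was 1.04 between estradiol and vehicle, 0.87 between tamoxifen and vehicle and -0.17 between the ligands. Doubling the vehicle gave medians of 0.47 and 0.39, below the 0.92 and 0.74 of FOS in that setting. Single spike probe sets then ranged from 0.07 to 0.81 with estradiol and from -0.46 to 0.84 with tamoxifen. FOS thus lay above the spike range with estradiol and inside it with tamoxifen. As deposited, FOS lay inside the spike range with both ligands. The hybridisation spikes, which are added after labelling, differed from vehicle by medians of 0.18 and 0.10 over 18 probe sets, or 0.32 and 0.23 with the vehicle doubled. The part of the spikes' difference in the FOS result was not tested.

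**Figure D1:**
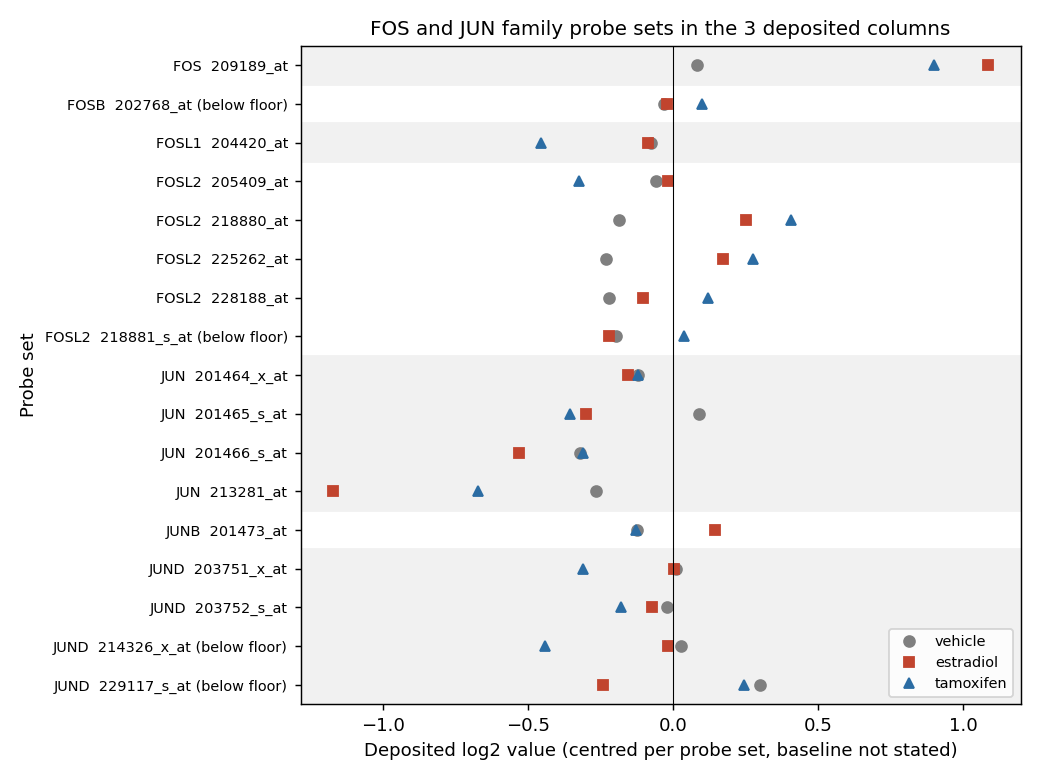
Deposited log2 values (horizontal axis, centred per probe set) of the 17 probe sets of FOS and JUN family genes (vertical axis) in the vehicle (grey circles), estradiol (red squares) and tamoxifen (blue triangles) columns. FOS stands at 1.08 and 0.90 with the ligands against 0.08 with vehicle, and JUN probe set 213281_at has the lowest value, -1.17 with estradiol.

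The later FOS genes differed less and in different ways. FOSL2, which encodes FRA-2, has 5 probe sets, of which 4 lay above the floor. Probe set 218880_at read -0.19 with vehicle, 0.25 with estradiol and 0.41 with tamoxifen. Probe set 225262_at read -0.23, 0.17 and 0.28 in the same order. In both, vehicle was lowest and tamoxifen highest, with differences from vehicle of 0.44 and 0.40 with estradiol and of 0.59 and 0.51 with tamoxifen. Probe set 228188_at had the same order with smaller differences, 0.12 and 0.34.

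The other FOSL2 probe sets did not share this order. Probe set 205409_at read -0.06 with vehicle, -0.02 with estradiol and -0.32 with tamoxifen, so tamoxifen was lowest. Below the floor, 218881_s_at gave differences from vehicle of -0.03 (estradiol) and 0.23 (tamoxifen). As the mean of its 4 probe sets above the floor, FOSL2 was above vehicle by 0.25 on the estradiol array and by 0.29 on the tamoxifen array, inside the 1.5-fold rule, and by 0.42 and 0.47 with the vehicle doubled. On single probe sets 218880_at alone passed the rule, with tamoxifen. Once the vehicle was doubled it passed with both ligands (0.62 and 0.78), as did 225262_at (0.63 and 0.74). The 0.59 of 218880_at lay close to the rule and was 0.58, inside it, once each column was centred on its median.

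FOSL1, which encodes FRA-1, was lower with tamoxifen and level with vehicle with estradiol. Its only probe set, 204420_at, read -0.08 with vehicle, -0.09 with estradiol and -0.46 with tamoxifen. The tamoxifen value stood apart from the other columns, which lay within 0.01 of each other. Tamoxifen was lower by 1.30-fold than vehicle (-0.38, or -0.30 with the vehicle doubled) and by 1.29-fold than estradiol (-0.37). FOSL1 ranked 955th from the bottom of 12075 genes in tamoxifen minus estradiol, and it did not pass 1.5-fold in any of the 3 comparisons.

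FOSB, whose protein and its truncated form are known from neurons and early responses, had values of -0.03 with vehicle, -0.02 with estradiol and 0.10 with tamoxifen on probe set 202768_at. They spanned the narrowest range of the FOS genes. Below the floor such values carry little weight, and no difference of FOSB is counted.

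Among the JUN genes, JUN was lower with estradiol on its 4 probe sets, by amounts that disagreed widely. JUN encodes c-JUN, the main partner of FOS. Probe set 213281_at read -0.27 with vehicle, -1.17 with estradiol and -0.68 with tamoxifen. Estradiol was lowest and vehicle highest, with differences from vehicle of -0.91, or 1.87-fold lower, and -0.41. Doubling the vehicle gave -0.64 and -0.14. Among the 20821 named probe sets above the floor, 213281_at ranked 218th from the bottom with estradiol.

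The other JUN probe sets differed by less. Probe set 201465_s_at read 0.09 with vehicle, -0.30 with estradiol and -0.36 with tamoxifen, so both ligands were lower, with differences of -0.39 and -0.44. Probe set 201466_s_at read -0.32, -0.53 and -0.31, lower with estradiol alone (-0.21), and this became 0.11 with the vehicle doubled. The brightest, 201464_x_at, lay between -0.16 and -0.12 in all 3 columns, with differences from vehicle of -0.04 and 0.00. The endings s_at and x_at mark probe sets that can match more than 1 transcript or partly related sequences, and 213281_at is the only JUN probe set without such an ending. The gene value taken from the brightest band was -0.04 with estradiol, and it was -0.91 without the cross-matching types. The direction of JUN with estradiol is thus lower on all 4 probe sets as deposited, but its size depends on the probe set, and with the vehicle doubled 2 of the 4 turned positive (0.09 and 0.11).

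JUNB, an immediate early gene whose protein can oppose c-JUN, was higher with estradiol alone. Probe set 201473_at read -0.13 with vehicle, 0.15 with estradiol and -0.13 with tamoxifen. Vehicle and tamoxifen were level (difference -0.003), and estradiol was 1.21-fold above vehicle (0.27, or 0.40 with the vehicle doubled). Tamoxifen minus estradiol was -0.27. None of these passed 1.5-fold.

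JUND, the member expressed most evenly in many tissues, was lower with tamoxifen on its probe sets above the floor. All JUND probe sets end in s_at or x_at, the cross-matching types described for JUN. Probe set 203752_s_at read -0.02 with vehicle, -0.07 with estradiol and -0.18 with tamoxifen. Probe set 203751_x_at read 0.01, 0.00 and -0.31. Vehicle and estradiol were close together in both, and tamoxifen was lower, with differences of -0.16 and -0.32 from vehicle and of -0.11 and -0.32 from estradiol. Below the floor, 214326_x_at had the same order with a tamoxifen minus vehicle difference of -0.47. The last, 229117_s_at, went another way, with estradiol lowest (-0.24 against 0.30 with vehicle and 0.24 with tamoxifen). Its difference of -0.54 lies below the floor and is not counted.

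**Figure D2:**
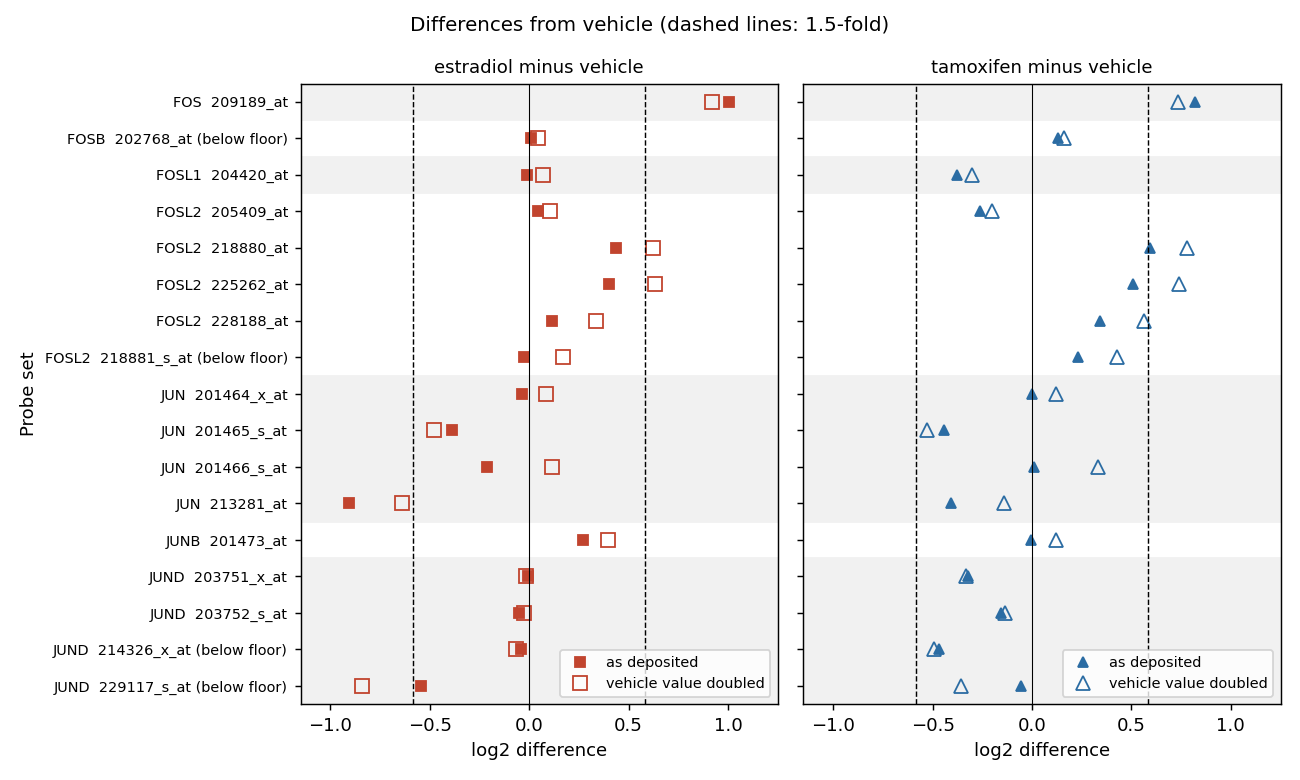
log2 differences (horizontal axis) of estradiol (left, squares) and tamoxifen (right, triangles) from vehicle for the 17 probe sets, as deposited (filled) and with the vehicle value doubled (open), with dashed lines at 1.5-fold. FOS lies beyond the upper line with both ligands in both settings, and JUN 213281_at lies beyond the lower line with estradiol in both (-0.91 and -0.64).

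Control probe sets along ACTB and GAPDH, which serve as a check of RNA integrity, differed from each other on the tamoxifen array. The probe sets for the 5′ end, middle and 3′ end of ACTB differed from estradiol by -1.0, -0.42 and -0.05 with tamoxifen, and from vehicle by -1.08, -0.36 and -0.18. On the estradiol array the ACTB controls lay within -0.13 to 0.05 of vehicle. Those of GAPDH differed from vehicle by -0.26, -0.21 and -0.10 with tamoxifen and by -0.22, -0.09 and -0.17 with estradiol. Between tamoxifen and estradiol they differed by -0.04, -0.12 and 0.07. The lower tamoxifen values of FOSL1 and JUND were seen beside these lower values toward the 5′ end of ACTB. Where along their transcripts the family's probe sets lie is not used here, and the part of RNA integrity in these values was not tested.

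Counted over the family with estradiol, 1 of the 6 genes above the floor (FOS) was at least 1.5-fold higher than vehicle, where 5.82% of the 12075 named genes were. None of the 6 was at least 1.5-fold lower, against 2.64% of all genes. With tamoxifen the count was again 1 of 6 higher (FOS), against 6.96% of all genes, and 0 lower, against 4.31%. Between tamoxifen and estradiol none of the 6 passed in either direction, against 1.57% higher and 2.2% lower. With the vehicle doubled FOS remained the only one of the 6 past the rule with either ligand, against 4.38% of all genes higher and 1.92% lower with estradiol and 7.14% higher and 3.64% lower with tamoxifen. A single gene of 6 is too few to set the family apart from all genes. Over the 6 genes the median difference from vehicle was 0.12 with estradiol and -0.001 with tamoxifen, beside 0.02 and 0.02 over all named genes. With the vehicle doubled it was 0.24 and 0.12, beside 0.07 and 0.06.

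On single probe sets above the floor, estradiol had 1 of 13 at least 1.5-fold higher (FOS), against 7% of all named probe sets, and 1 of 13 lower (JUN 213281_at), against 4.61%. Tamoxifen had 2 of 13 higher (FOS and FOSL2 218880_at), against 8.19%, and 0 lower, against 5.95%. Between tamoxifen and estradiol 0 of 13 passed upward, against 2.34%, and 0 downward, against 2.69%. With the vehicle doubled estradiol had 3 of 13 higher (FOS and 2 of FOSL2), against 4.94%, and 1 lower (JUN 213281_at), against 3.43%. In that setting tamoxifen had the same 3 higher, against 8.44%, and 0 lower, against 5.17%. With estradiol as deposited 5 of 6 FOS-side probe sets were above vehicle and 6 of 7 JUN-side ones below it, with medians of 0.26 and -0.05. With tamoxifen 4 of 6 were above and 5 of 7 below, with medians of 0.42 and -0.16. Doubling the vehicle put 6 of 6 FOS-side and 3 of 7 JUN-side probe sets above it with estradiol (medians 0.48 and -0.01), and 4 of 6 and 3 of 7 with tamoxifen (0.65 and -0.13). The share of all probe sets above vehicle was not computed, so these counts do not set the FOS side apart from the JUN side. Some of the directions rest on small differences. With estradiol as deposited these were -0.04 for JUN 201464_x_at and -0.01 and -0.05 for JUND 203751_x_at and 203752_s_at. On the FOS side they were -0.01 for FOSL1 and 0.04 for FOSL2 205409_at. By gene, 3 of the 6 were above vehicle with each ligand, or 5 with estradiol and 4 with tamoxifen once the vehicle was doubled. Of all named genes 53.3% were above vehicle with estradiol and 52.1% with tamoxifen, or 61.0% and 56.9% with the vehicle doubled. Probe sets of 1 gene share their transcript, so the probe set counts rest on 6 genes, and FOSL2 and JUN supply 8 of the 13.

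**Figure D3:**
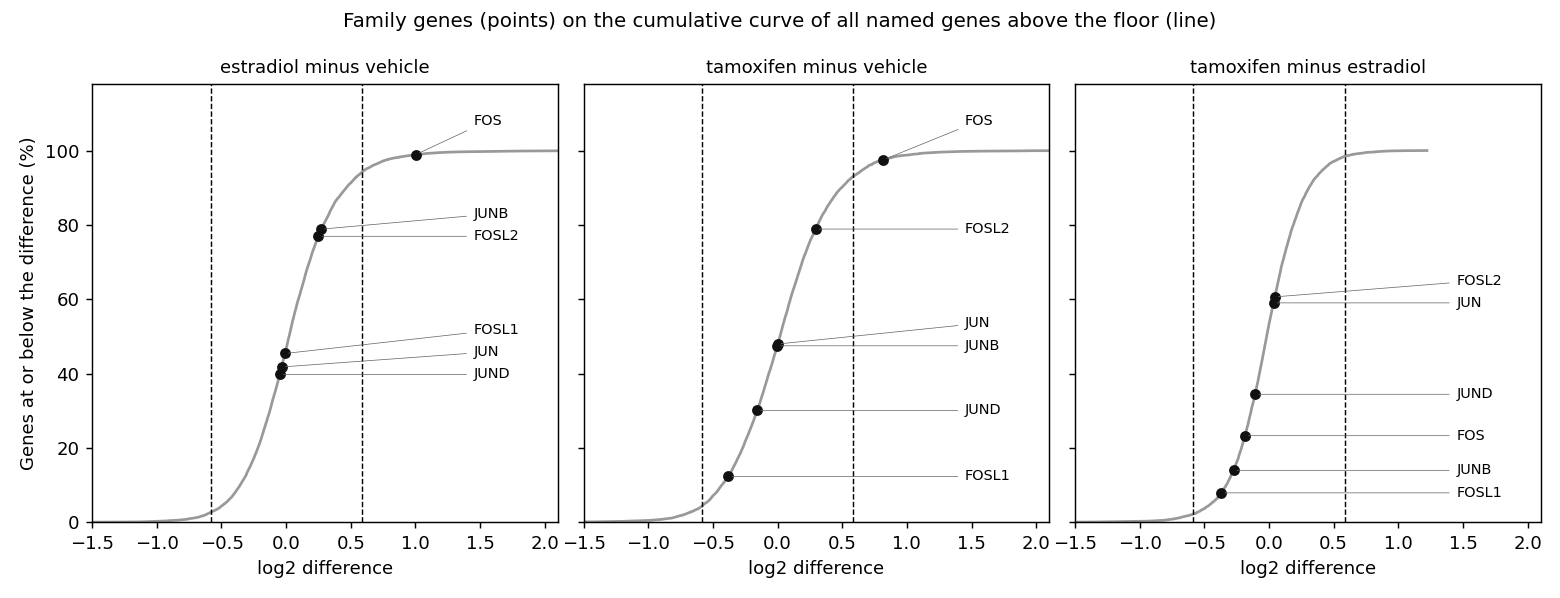
Cumulative percentage of the 12075 named genes above the floor (vertical axis) at or below each log2 difference (horizontal axis) in the 3 comparisons, with the 6 family genes above the floor as points and dashed lines at 1.5-fold. FOS lies beyond the upper line in both comparisons with vehicle, and in tamoxifen minus estradiol the lowest family gene is FOSL1 at -0.37.

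The comparison of the ligands does not use the vehicle column. Estradiol and tamoxifen are both ligands of the estrogen receptor, estradiol a steroid and tamoxifen a nonsteroidal triphenylethylene, and they were given at the same dose for the same time. The family genes ordered in tamoxifen minus estradiol from FOSL1 (-0.37) through JUNB (-0.27), FOS (-0.19) and JUND (-0.11) to JUN (0.04) and FOSL2 (0.05). Of the 6 genes 4 were lower with tamoxifen, as were 6415 of all 12075 named genes above the floor. The median of the 6 was -0.15 beside -0.02 over all genes. The largest positive value was that of JUN 213281_at (0.50), where tamoxifen lay between vehicle and estradiol. With 1 array each, no interval can be given for these differences, and nothing here shows that the ligands act alike or unalike on the family.

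Genes whose 3 values followed FOS most closely were found by Euclidean distance over the 3 columns, each gene being centred on its own mean. The nearest of the 12075 was SASH1, which read 0.18 with vehicle, 1.17 with estradiol and 1.01 with tamoxifen (distance 0.017). DNAJB9, which encodes a chaperone partner of the endoplasmic reticulum, and APOO followed at distances of 0.031 and 0.031. Their differences from vehicle were 1.0 and 0.85 for DNAJB9 and 1.01 and 0.86 for APOO. The poly-A spikes, with medians of 1.04 and 0.87 from vehicle and -0.17 between the ligands, had a similar pattern to these genes. Likeness over 3 columns is a description only, and shared regulation with FOS was not tested.

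Other basic leucine zipper factors that can pair with JUN or FOS, or compete with them for the same sites, were mostly higher with estradiol than with vehicle or tamoxifen. Of 20 listed, 17 had a probe set and 12 lay above the floor. With estradiol 10 of the 12 were above vehicle (53.3% of all genes) and 1 passed 1.5-fold upward (5.82% of all genes). With tamoxifen 4 were above (52.1% of all genes) and 1 passed downward (4.31% of all genes). Their median difference was 0.29 with estradiol and -0.02 with tamoxifen, or 0.23 and -0.15 with the vehicle doubled. Between tamoxifen and estradiol 11 of the 12 were lower with tamoxifen, as were 6415 of the 12075 genes, and 3 passed 1.5-fold downward, against 2.2% of all genes. The median was -0.27 beside -0.02 over all genes. The tamoxifen array is the one whose ACTB 5′ control was lower than estradiol by 1.99-fold, and its part here was not tested.

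ATF3, a stress-induced partner of JUN proteins, read 0.29 with vehicle, 1.05 with estradiol and 0.28 with tamoxifen, so estradiol alone was high. BATF, which dimerises with JUN proteins and lacks a transactivation domain, read 0.23, 0.76 and 0.03. JDP2, a JUN dimerisation partner that represses AP-1 sites, read 0.24, 0.69 and 0.10. In these 3 genes tamoxifen minus estradiol was -0.78, -0.73 and -0.59. BATF3 read -0.32, -0.73 and -0.99, lowest with tamoxifen. Against vehicle no partner passed 1.5-fold once the vehicle was doubled, with ATF3 at 0.48 with estradiol and BATF3 at -0.35 with tamoxifen. JUNB, like ATF3, had its estradiol value alone above the others. Vehicle and tamoxifen were level in both genes, with tamoxifen minus vehicle of -0.003 for JUNB and -0.008 for ATF3. With the vehicle doubled these went apart, to 0.12 and -0.29.

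Of 23 listed kinases that lie upstream of AP-1, 19 had a probe set and 17 lay above the floor. They carry growth factor and stress signals to FOS and JUN, by raising transcription or by phosphorylating the proteins. With estradiol 2 of the 17 were at least 1.5-fold higher and 0 lower, against 5.82% and 2.64% of all genes. With tamoxifen 3 were higher and 1 lower, against 6.96% and 4.31%. RPS6KA3, the ERK-activated kinase RSK2, read 0.30 with vehicle, 1.35 with estradiol and 1.26 with tamoxifen. MAP2K4, which activates JNK, read 0.03, 0.66 and 0.66. MAP2K1, which encodes MEK1, differed from vehicle by 0.46 and 0.61, and the p38 kinase gene MAPK13 by -0.37 and -0.73. Over the list the median difference from vehicle was 0.07 with estradiol and 0.25 with tamoxifen. Doubling the vehicle left 2 genes higher with estradiol and brought the tamoxifen count to 5 higher, with MAPK9 (0.60) and RPS6KA1 (0.66) added, and 1 lower. In that setting 4.38% of all genes were higher with estradiol, and 7.14% were higher and 3.64% lower with tamoxifen.

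Of the 11 factors that bind the promoters of FOS or JUN, all lay above the floor. With estradiol 2 were at least 1.5-fold higher (5.82% of all genes) and with tamoxifen 1 (6.96%), and 0 were lower with either (2.64% and 4.31%). The list medians were 0.04 and 0.10, or -0.02 and 0.09 with the vehicle doubled, and that of all genes was 0.02 with each ligand. MEF2C, one of the MEF2 factors that bind the JUN promoter, read 0.38 with vehicle, 1.39 with estradiol and 1.44 with tamoxifen. ELK1, the ternary complex factor that ERK activates at the FOS promoter, differed from vehicle by 0.60 and 0.53. SRF, which binds the serum response element together with ELK1, differed by 0.26 and 0.08, and its coactivator MRTFA by -0.11 and -0.34. In the doubled setting MEF2C alone passed the rule (0.64 and 0.69), where 4.38% and 7.14% of all genes were higher, while ELK1 was at 0.49 and 0.42.

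Genes that control the decay of FOS and JUN transcripts or proteins were all above the floor (11 of 11). With estradiol 2 passed 1.5-fold upward (5.82% of all genes) and with tamoxifen 0 (6.96%), and 0 passed downward with either (2.64% and 4.31%). The list medians were -0.01 and 0.16, or 0.20 and 0.23 with the vehicle doubled, beside 0.07 and 0.06 over all genes in that setting. TRIB1, a pseudokinase that recruits the ubiquitin ligase COP1, read -0.19 with vehicle, 0.42 with estradiol and 0.34 with tamoxifen. DET1, a component of a ubiquitin ligase complex that acts on c-JUN, differed from vehicle by 0.60 and 0.27. ZFP36, which binds AU-rich elements and hastens the decay of early response messages, differed by 0.37 and 0.26. KHSRP, another decay factor, differed by -0.31 and 0.15. After doubling, TRIB1 alone passed, with both ligands (0.80 and 0.72), where 4.38% and 7.14% of all genes were higher.

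The list of genes with known AP-1 sites or dependence on AP-1 had 18 of 24 above the floor. With estradiol 2 were at least 1.5-fold higher and 2 lower, against 5.82% and 2.64% of all genes, with a median of -0.04. With tamoxifen 2 were higher and 0 lower, against 6.96% and 4.31%, with a median of 0.02. Between tamoxifen and estradiol 0 were higher and 3 lower, against 1.57% and 2.2%, and these were IL6 (-0.81), CXCL8 (-0.70) and HMOX1 (-0.67). The 2 genes higher than vehicle were the chemokine gene CXCL8 and the cytokine gene IL6, the latter reading 0.37 with vehicle, 2.49 with estradiol and 1.68 with tamoxifen. The lower genes with estradiol were MMP1 and the cyclin gene CCND1 (-0.59). MMP1, the interstitial collagenase and a textbook AP-1 target, read -0.32, -0.99 and -0.76. HMOX1, the inducible heme oxygenase, read 0.05, 0.30 and -0.36, lowest with tamoxifen. With the vehicle doubled neither MMP1 (-0.36) nor CCND1 (-0.42) passed. With tamoxifen TGFB1 (0.67) and IL11 (0.82) joined the higher genes in that setting, making 4 of 18, against 7.14% of all genes. The list medians were then 0.17 with estradiol and 0.07 with tamoxifen. MAPK9, RPS6KA1, CCND1, TGFB1 and IL11 were named after their values were seen.

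**Figure D4:**
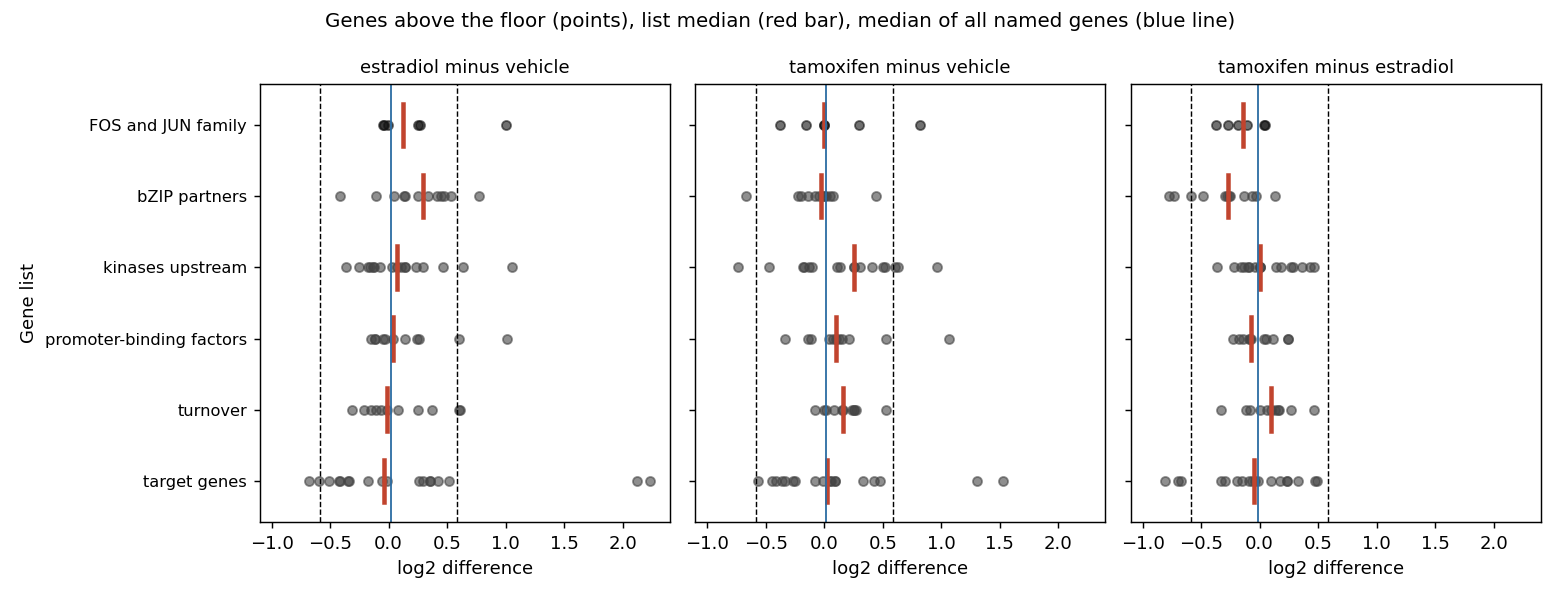
log2 differences (horizontal axis) of the genes above the floor (points) in the FOS and JUN family and 5 lists of related genes (vertical axis), with the list median as a red bar, the median of all named genes as a blue line and dashed lines at 1.5-fold. In tamoxifen minus estradiol the median of the bZIP partners is -0.27 and that of all named genes is -0.02.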

How the data were processed

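Biotin-labelled total RNA was hybridised to Affymetrix arrays, per the labels' protocols. The authors deposited values, taken here as log2 values, for 54675 probe sets in 3 columns, and robust multi-array averaging (RMA) is named in the submitters' processing notes without a version. The centring, the base of the logarithm, the direction and any pooling of arrays are not given in the sources used here. The medians of the vehicle, estradiol and tamoxifen columns were -0.04, -0.02 and -0.02. Probe sets were named through the platform annotation: 41097 had 1 symbol, 1801 had several and 11777 had none in the table, and no probe set with several symbols named a family gene.

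A single-precision number between 8 and 16 is stored in coarser binary steps than one between 4 and 8. The finest step over the 3 columns (the vehicle shifted by 1 place) thus gave a brightness band. The reading was tried on simulated data in which the vehicle was made as a mean of 2 values, an assumption not tested here. The simulated baselines were drawn away from the band edges, so baselines near 4 or 8 were not tried. By chance a probe set can be placed 1 band too bright. A gene was the mean of its probe sets in its brightest band above the floor of 4, which 12075 genes passed. Differences of columns were computed with pandas 2.3.3. With 1 array per group no test was run, and a size rule of 1.5-fold was used. Named were every family probe set, the 3 nearest genes to FOS, and up to 4 genes per list with the largest absolute difference. MAPK9, RPS6KA1, CCND1, TGFB1 and IL11, which passed 1.5-fold, and the markers ESR1, PTPRC and PECAM1 were named after their values were seen. Members, lists and settings were chosen with earlier results of these data known. The number of arrays limits the precision.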

Additional observations from a re-analysis of the deposited data

How the results depend on the processing

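No paired analysis was possible because each treatment had 1 sample. Of 120 alternative values of family genes, 117 stayed on the same side of 1.5-fold. Many of these values could not move. FOS, FOSL1 and JUNB have 1 probe set each, so settings that choose or average probe sets could not change their values. A gene value uses only the brightest band, so the settings of the floor could not change any family gene that they kept. FOS was the only family gene past 1.5-fold in the main setting. It kept its sign and passed against vehicle in every alternative that kept its probe set and the 1.5-fold rule. Of 119 alternative values of single family probe sets 7 crossed the rule, and 21 of 53 alternative counts changed by more than 1.5 times. The count of family genes past 1.5-fold was 1 of 6 with each ligand. It was 0 with each ligand at a floor of 8, which leaves 3 genes and not FOS, and 0 with tamoxifen at a 2-fold rule. It was 2 with each ligand for the probe set with the widest range, which adds JUN (-0.91) with estradiol and FOSL2 (0.59) with tamoxifen. Without the cross-matching types, which leaves 5 genes and not JUND, it was 2 with estradiol and 1 with tamoxifen. On single probe sets, a count added after the data were seen, it was 2 with each ligand. Over all genes, 1022 passed with estradiol, 1362 with tamoxifen and 456 between the ligands. A floor of 8 gave 364, 511 and 125, the widest-range probe set 1995, 2357 and 885, and a 2-fold rule 160, 206 and 39. Between the ligands no floor gave 1029 and averaging all probe sets 282. A setting without the vehicle column was added after the data were seen. It reads each ligand's own centred value against the unstated baseline and is not a difference between columns. In this setting 1938 and 2083 passed, 1066 above and 872 below the baseline with estradiol and 1060 and 1023 with tamoxifen. The counts against vehicle, an unlike measure, were 703 higher and 319 lower with estradiol and 841 and 521 with tamoxifen. Without the vehicle column FOS was at 1.08 and 0.90 and JUN 213281_at at -1.17 and -0.68. FOSL2 218880_at was then inside the rule with tamoxifen (0.41). The cause of these shifts was not tested, apart from the fewer genes at a floor of 8.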
